A study of Homo sapiens with 9 samples.

Results

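Dividing cells need deoxynucleoside triphosphates (dNTPs), the building blocks of DNA, and make them by a de novo route and by salvage. In the de novo route ribonucleotide reductase, a complex of the large subunit RRM1 with a small subunit, RRM2 or RRM2B, converts ribonucleotides to deoxyribonucleotides, and thymidylate synthase (TYMS) makes the thymidine nucleotide. In salvage, deoxynucleoside kinases phosphorylate deoxynucleosides, TK1 and DCK in the cytosol and TK2 and DGUOK in mitochondria, and SAMHD1 breaks dNTPs down again. The same enzymes decide how leukaemia cells handle nucleoside drugs: DCK activates cytarabine, SAMHD1 hydrolyses its active triphosphate, and hydroxyurea and clofarabine inhibit ribonucleotide reductase. These 9 genes, RRM1, RRM2, RRM2B, TYMS, TK1, DCK, DGUOK, TK2 and SAMHD1, were taken by gene name from the deposited tables. All 9 were found among the 58735 genes of the count table, and all 9 were among the 14975 genes with enough reads to be tested.

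The cells were THP-1, an established human acute myeloid leukaemia line that carries the MLL-AF9 fusion. Every group was transduced with lentivirus packaged in 293T cells, a human embryonic kidney line, was put under puromycin from 24 hours and was harvested 48 hours after spinoculation, so all 9 libraries share the viral transduction and the drug. The 3 control libraries carry an shRNA with no intended target, and the other groups, of 3 libraries each, carry the shRNAs called shRNA-143 and shRNA-146, both directed at NFATC2, a calcineurin-activated transcription factor. Everything was measured in a single cell line, at a single time point, as polyadenylated RNA, and no label ties a replicate to a culture of its own, so a p-value here reflects the spread from library to library, which may be technical. Levels are CPM (counts scaled to a common library total) after TMM scaling of the deposited counts.

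Libraries held 40047459 to 44669709 counts. The libraries numbered 1 stood apart: their deviations from the group means correlated with those of libraries numbered 2 or 3 in other groups at -0.678 to -0.215, whereas libraries sharing a number correlated at 0.252 to 0.758. Deviations within a group cancel out, so positive correlations within a number push those between numbers down. The negative values are therefore not separate evidence, and the positive ones are what the block rests on. Between groups, libraries numbered 2 correlated with those numbered 3 at 0.101 to 0.535, so these numbers were not clearly apart. Results are therefore given without and with the replicate number as a block, and the main ones also from the 6 libraries numbered 2 and 3. The monocytic markers fixed for THP-1 summed to 789 to 857 CPM in control, 799 to 873 with shRNA-143 and 803 to 902 with shRNA-146, and T cell markers were at 0 in all 9 libraries. The packaging line was looked for with 5 epithelial markers, which summed to 3.94 to 4.87 CPM in control, 3.25 to 3.78 with shRNA-143 and 2.21 to 2.74 with shRNA-146; nearly all of it was KRT8, and KRT19 was at 0 throughout. Any part of these markers in the results was not tested.

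The targeted gene was lower in both knockdown groups. NFATC2 stood at 12.7, 27.6 and 27.4 CPM in control replicates 1 to 3, 1.49, 7.40 and 6.95 with shRNA-143 and 2.59, 6.71 and 9.43 with shRNA-146. The highest knockdown library was below the lowest control library, and the library numbered 1 was the lowest of each group. The log2 fold change with the block was -2.27 ± 0.24 (SE) for shRNA-143 (edgeR adjusted p = 0.00168) and -1.96 ± 0.23 for shRNA-146 (adjusted p = 0.00435). Without the block neither passed by edgeR (adjusted p = 0.497 and 0.464). The authors' deposited values, from DESeq2 by their notes, were -2.07 for shRNA-143 (adjusted p = 0.0206) and -1.84 for shRNA-146 (adjusted p = 0.0398).

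The first comparison asked which dNTP genes differed between shRNA-143 and control. DGUOK and RRM2 fell, and the other 7 genes did not pass the test. DGUOK, the mitochondrial kinase that salvages deoxyguanosine and deoxyadenosine, fell to 23.4% of its control level in the blocked fit, and RRM2, the small subunit that limits ribonucleotide reductase in S phase, fell to 43.3%. Without the block 1 of 9 genes passed, DGUOK, where 0.0467% of all tested genes did. With the block 2 of 9 passed, against 3.17% of all tested genes, both of them lower, a direction that 1.57% of all tested genes took.

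DGUOK (ENSG00000114956) lies at chr2:73926826-73958961 on the plus strand of hg38. It stood at 57.1, 39.4 and 55.8 CPM in control replicates 1 to 3, 14.4, 10.6 and 10.4 CPM with shRNA-143 and 42.6, 28.8 and 33.7 CPM with shRNA-146. The 3 shRNA-143 libraries were the lowest of the 9 and touched neither of the other groups, whereas the shRNA-146 and control ranges overlapped. The log2 fold change for shRNA-143 was -2.10 ± 0.25 (SE, n = 3 per group, edgeR adjusted p = 0.0308) and with the block -2.10 ± 0.15 (adjusted p = 0.000163), which ranked DGUOK second by p among all tested genes. From the libraries numbered 2 and 3 alone the change was -2.17 ± 0.18 (adjusted p = 0.000158). Without the block, leaving out any of control replicates 1 and 3, the 3 shRNA-143 libraries or shRNA-146 replicates 2 and 3 ended the call, with adjusted p-values of 0.0586 to 0.359 and changes of -2.27 to -2.01, as did fitting only the 6 libraries compared (adjusted p = 0.0570). Whether there were fewer cells with DGUOK RNA or less of it per cell cannot be told apart in bulk RNA, here or for any gene below.

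With shRNA-146 DGUOK was at 74.6%, 73.1% and 60.4% of the control library with the same number. All 3 values were below 100%. The share of all tested genes with 1 sign in all 3 numbers was not counted, for this gene or those below. The log2 fold change of -0.54 ± 0.14 with the block missed the threshold (edgeR adjusted p = 0.0569), and the value without it did not pass either (-0.54 ± 0.24, adjusted p = 0.566). The libraries numbered 2 and 3 with the block gave -0.59 ± 0.14, which passed (adjusted p = 0.0243), in a fit where 13.9% of all tested genes passed. Against shRNA-143, DGUOK was higher with shRNA-146 by 1.56 ± 0.15 with the block (adjusted p = 0.000736) and by 1.57 ± 0.24 without it (adjusted p = 0.0948). The level of the targeted NFATC2 did not differ detectably between the shRNAs (0.31 ± 0.23 with the block, adjusted p = 0.713).

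RRM2 (ENSG00000171848) lies at chr2:10120698-10131419 on the plus strand. It stood at 147, 131 and 145 CPM in control replicates 1 to 3, 70.3, 63.2 and 51.8 CPM with shRNA-143 and 215, 160 and 136 CPM with shRNA-146. Again the shRNA-143 libraries were the 3 lowest of the 9, while 2 of the 3 shRNA-146 libraries lay above every control library and the other lay inside the control range. The change with shRNA-143 was -1.21 ± 0.15 with the block (edgeR adjusted p = 0.00287) and -1.19 ± 0.21 without it (adjusted p = 0.150). From the libraries numbered 2 and 3 alone RRM2 passed without the block too (-1.26 ± 0.15, adjusted p = 0.00132), where 3.89% of all tested genes passed. With shRNA-146 the change was 0.24 ± 0.14 with the block (adjusted p = 0.332), so no difference from control was detected.

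The shRNAs were then compared with each other. RRM2 was higher with shRNA-146 than with shRNA-143 by 1.45 ± 0.15 on the log2 scale with the block (edgeR adjusted p = 0.00109). Without the block the difference was 1.46 ± 0.21 (adjusted p = 0.0826). In this comparison 2 of 9 genes, DGUOK and RRM2, passed with the block, against 1.20% of all tested genes, and 0 of 9 passed without it, against 0.0467%. Of the 9 genes, 2 had an unadjusted p under 0.05 without the block, again DGUOK and RRM2, against 3.75% of all tested genes, and DESeq2 without the block also passed these 2, where it passed 0.393% of the genes it tested. DGUOK and RRM2 were also the genes whose libraries did not overlap between shRNA-143 and control, against 15.2% of all tested genes, or between the shRNAs, against 8.17%; every other comparison of the 9 genes had overlapping libraries, shRNA-146 against control included, where 14.7% of all tested genes did not overlap.

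**Figure D1:**
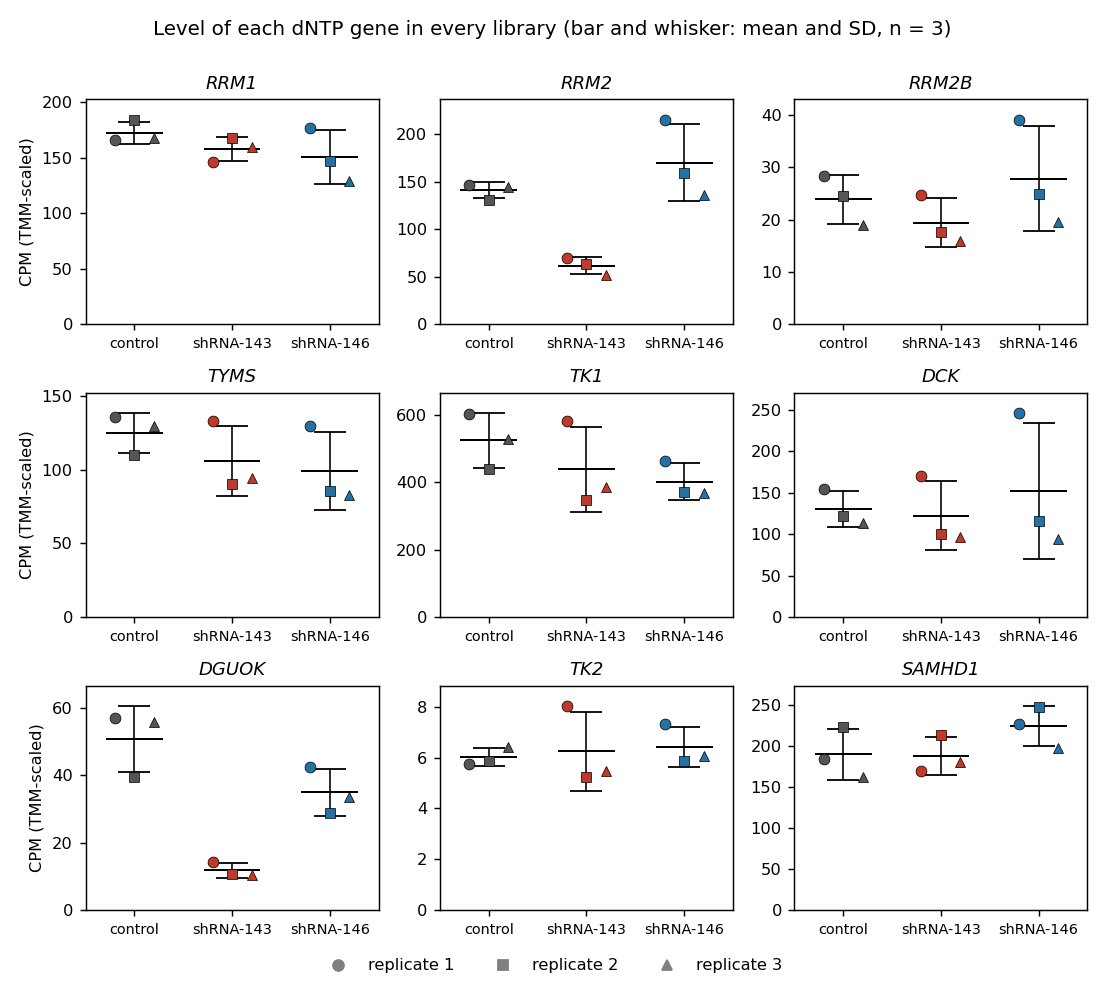
Level of each dNTP gene in the 9 libraries, in CPM on linear axes that start at 0; marker shape gives the replicate number, the long bar the mean and the whiskers the SD (n = 3). The shRNA-143 libraries of DGUOK (10.4 to 14.4 CPM) and RRM2 (51.8 to 70.3 CPM) lie below all other libraries, and in the other 7 panels the groups overlap.

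The sequence upstream of these genes is shown because DGUOK and RRM2 moved together with shRNA-143 and TK1, the most abundant of the 9 genes per length, did not pass. Each run holds the 250 bases before the RefSeq transcription start (GRCh38.p14) and the first 10 transcribed bases, read 5′ to 3′ on the gene's strand. Capitals mark the CCAAT box, on either strand (CCAAT or ATTGG), and CGGAAGTG, a GGAA core of the kind that ETS family factors bind.
RRM2, chr2:10122489-10122748, plus strand: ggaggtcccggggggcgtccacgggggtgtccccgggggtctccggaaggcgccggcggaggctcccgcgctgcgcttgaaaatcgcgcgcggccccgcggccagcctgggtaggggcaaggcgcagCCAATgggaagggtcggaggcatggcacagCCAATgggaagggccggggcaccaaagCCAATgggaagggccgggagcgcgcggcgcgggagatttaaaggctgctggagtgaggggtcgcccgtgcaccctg
TK1, chr17:78187043-78187302, minus strand: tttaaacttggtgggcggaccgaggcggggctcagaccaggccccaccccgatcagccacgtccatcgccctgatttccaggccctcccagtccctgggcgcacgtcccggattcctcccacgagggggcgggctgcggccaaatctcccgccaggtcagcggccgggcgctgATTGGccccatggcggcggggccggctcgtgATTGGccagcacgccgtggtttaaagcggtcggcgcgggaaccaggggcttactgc
DGUOK, chr2:73926630-73926889, plus strand: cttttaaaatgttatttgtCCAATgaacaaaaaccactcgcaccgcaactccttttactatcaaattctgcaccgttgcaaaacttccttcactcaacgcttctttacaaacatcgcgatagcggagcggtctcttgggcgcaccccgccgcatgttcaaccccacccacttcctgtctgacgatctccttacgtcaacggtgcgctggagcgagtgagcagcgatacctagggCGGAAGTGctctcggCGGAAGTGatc

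At the starts used here, the promoters of RRM2 and TK1 share a layout and that of DGUOK differs from it. RRM2 has 3 CCAAT boxes, at 123, 93 and 66 bases before its start, and an AT-rich TTTAAA element at 30; TK1 has 2 on the reverse strand, at 77 and 46, and TTTAAA at 27 and 250. DGUOK has a single CCAAT, at 231, TTTAAA at 248, and a CGGAAGTG at 16 and another at 1 base before its start, the last running into the transcript. CCAAT close to the start was also found at 49 and 38 in SAMHD1 and at 28 in RRM1, both without TTTAAA. The deposited spans of RRM2, TK1 and DGUOK begin upstream of the RefSeq starts used here. Over the 35116 promoters of the RefSeq table, searched on both strands over 300 bases, 34.6% hold CCAAT, 10.8% hold 2 or more and 3.26% hold 3 or more. TTTAAA is in 12.2%, and 4.0% hold CGGAAGTG and 0.370% hold 2 or more. GGAAA, the core that NFAT factors bind, is in 61.2% of all promoters and was not found in the RRM2 or DGUOK windows of 300 bases, and TK1 has 1 match; this says only that these letters are not there. The motifs were chosen with the sequences and the results in view, and TK1 and RRM2 each have another RefSeq start, of which the most downstream was used. The shared layout was not present at the other starts. There RRM2 had a single CCAAT, at 249, and no TTTAAA, and TK1 had TTTAAA at 98, 2 matches of GGAAA and no CCAAT.

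Reads that overlapping genes could share touch little of DGUOK and more of some other members. Of the exon bases of DGUOK 4.26% are shared, with the antisense gene DGUOK-AS1, which held 10 to 26 counts a library against 478 to 2120 for DGUOK itself. RRM2 shares 20.2% with AC007240.1 on the same strand, which held 3 to 25 counts a library. The processed pseudogenes RRM2P2, RRM2P3 and RRM2P4 had 0 counts in all 9 libraries. How reads in overlapping genes or with several matches were counted is not known here. Low counts of these genes therefore do not show that few reads were shared or lost. The count of TYMS is the least certain, since 46.6% of its exon bases are shared, mostly with ENOSF1 on the opposite strand, and whether reads were counted by strand is not known here.

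The 3 nearest tested genes on either side of DGUOK and RRM2 were examined with the same fits. None of these 12 genes passed in either comparison with control by edgeR in either fit, or by DESeq2 without the block; with the block 3 had an unadjusted p under 0.05 for shRNA-143 and 4 for shRNA-146, where 20.7% and 23.5% of all tested genes did. Beside DGUOK, STAMBP had a log2 fold change of -0.28 ± 0.17 with shRNA-143 and the block (edgeR adjusted p = 0.373) and TET3 of 0.28 ± 0.15 (adjusted p = 0.307). Beside RRM2, KLF11 had 0.49 ± 0.17 (adjusted p = 0.138), C2orf48 0.80 ± 0.64 (adjusted p = 0.508) and HPCAL1 -0.46 ± 0.13 (adjusted p = 0.0956), the lowest adjusted p of the 12 for shRNA-143.

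The remaining subunits of ribonucleotide reductase did not pass in any of the 3 comparisons in either fit. RRM1 (ENSG00000167325, chr11:4094707-4138876), the large catalytic subunit, stood at 166, 184 and 168 CPM in control, 146.3, 168 and 160 with shRNA-143 and 177, 147 and 129 with shRNA-146. Its change was -0.13 ± 0.14 with shRNA-143 (edgeR with the block, adjusted p = 0.647) and -0.20 ± 0.14 with shRNA-146 (adjusted p = 0.432). The groups overlapped, and RRM1 was lower than the control of the same number in 3 of 3 shRNA-143 libraries and 2 of 3 shRNA-146 libraries. These counts were not set against all tested genes.

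RRM2B (ENSG00000048392, chr8:102204502-102239118), the p53-inducible small subunit that serves resting cells and mitochondria, stood at 28.3, 24.4 and 18.9 CPM in control, 24.7, 17.6 and 15.8 with shRNA-143 and 39.0, 24.9 and 19.5 with shRNA-146. The library numbered 1 was the highest of each group. Within a number RRM2B was lower than control in 3 of 3 shRNA-143 libraries and higher in 3 of 3 shRNA-146 libraries, the same signs as the mean change of RRM2, but the changes of -0.31 ± 0.14 (edgeR with the block, adjusted p = 0.252) and 0.18 ± 0.14 (adjusted p = 0.473) did not pass. How often other genes keep their sign in 3 of 3 numbers was not counted. The difference between the shRNAs was 0.49 ± 0.14 with the block (adjusted p = 0.183).

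The balance of the subunits was described as a ratio of CPM per kilobase of the deposited gene length. The RRM1 to RRM2 ratio was 1.57 ± 0.190 in control (SD, n = 3), 3.33 ± 0.646 with shRNA-143 and 1.14 ± 0.0851 for shRNA-146. The 3 groups did not overlap: single libraries ran from 1.44 to 1.79 in control, 2.65 to 3.94 with shRNA-143 and 1.05 to 1.21 with shRNA-146. The RRM2 to RRM2B ratio was 6.34 ± 1.45 for control, 3.37 ± 0.385 for shRNA-143 and 6.56 ± 0.758 for shRNA-146, so RRM2 RNA exceeded RRM2B RNA in every library. Both ratios contain RRM2 and with shRNA-143 they largely restate its fall. With shRNA-146, RRM2 itself overlapped control and did not pass, and RRM1 was lower than control in 2 of 3 numbers. The RRM1 to RRM2 ratio there draws on both genes. The ratios were not tested, and how often ratios of other genes separate the groups was not examined.

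TYMS and TK1, which supply thymidine nucleotides de novo and by salvage and are both induced in S phase, ran below control with both shRNAs but did not pass. TYMS (ENSG00000176890, chr18:657604-673578) stood at 136, 110 and 129 CPM in control, 133, 90.1 and 94.4 with shRNA-143 and 130, 85.2 and 82.8 with shRNA-146. TK1 (ENSG00000167900, chr17:78174075-78187233, minus strand) stood at 604, 441 and 530 CPM in control, 582, 348 and 386 with shRNA-143 and 465, 371 and 369 with shRNA-146. For both genes each knockdown library was below the control library of its own number, in 3 of 3 numbers with each shRNA, and the library numbered 1 was the highest of each group. Both shRNAs were set against the same control libraries, and the share of all tested genes with such signs was not counted.

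The change of TK1 was -0.28 ± 0.13 with shRNA-143 (edgeR with the block, adjusted p = 0.259) and -0.38 ± 0.13 with shRNA-146 (adjusted p = 0.119). That of TYMS was -0.26 ± 0.14 with shRNA-143 (adjusted p = 0.311) and -0.36 ± 0.14 with shRNA-146 (adjusted p = 0.146). TYMS passed with shRNA-146 only in the blocked fits that left out the library numbered 1: without shRNA-146 replicate 1, and on the libraries numbered 2 and 3 alone (-0.50 ± 0.12, adjusted p = 0.0256). The ratio of TK1 to TYMS per kilobase was alike in the groups, at 5.57 ± 0.304 (SD, n = 3) for control, 5.45 ± 0.344 for shRNA-143 and 5.48 ± 0.629 for shRNA-146.

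DCK (ENSG00000156136, chr4:70992538-71030914), the cytosolic kinase that also activates cytarabine, varied more between replicate numbers than between groups. It stood at 155, 122 and 113 CPM in control, 170, 101 and 96.9 with shRNA-143 and 246, 116 and 94.7 with shRNA-146. The library numbered 1 was the highest of each group, and shRNA-146 replicate 1 alone exceeded all the others. No change was detected with shRNA-143 (-0.14 ± 0.17, edgeR with the block, adjusted p = 0.684) or with shRNA-146 (0.11 ± 0.17, adjusted p = 0.728), and from the libraries numbered 2 and 3 alone the shRNA-146 value was -0.16 ± 0.12 with the block, of the opposite sign.

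TK2 (ENSG00000166548, chr16:66508003-66552544), the mitochondrial thymidine kinase, was the scarcest of the 9 genes, with 214 to 313 counts a library. It stood at 5.76, 5.84 and 6.42 CPM in control, 8.03, 5.24 and 5.46 with shRNA-143 and 7.31, 5.87 and 6.04 with shRNA-146. The change was 0.03 ± 0.19 with shRNA-143 (edgeR with the block, adjusted p = 0.953) and 0.08 ± 0.19 with shRNA-146 (adjusted p = 0.841). The fall of DGUOK with shRNA-143 thus had no detected counterpart in TK2, the other mitochondrial deoxynucleoside kinase.

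SAMHD1 (ENSG00000101347, chr20:36889773-36951901), the dNTP hydrolase that is abundant in cells of the monocyte lineage, stood at 184, 224 and 163 CPM in control, 170, 214 and 181 with shRNA-143 and 228, 248 and 199 with shRNA-146. Each shRNA-146 library was above the control library of its own number, a pattern not counted over all tested genes, though the groups overlapped. The shRNA-146 change of 0.25 ± 0.12 with the block did not pass (edgeR adjusted p = 0.254). With shRNA-143 it was -0.01 ± 0.12 (adjusted p = 0.972), a value whose sign turned positive when libraries were scaled by size alone. The ratio of SAMHD1 to DCK per kilobase, which sets a dNTP hydrolase against a dNTP-supplying kinase, was 0.426 ± 0.0928 (SD, n = 3) for control, 0.476 ± 0.168 for shRNA-143 and 0.492 ± 0.197 for shRNA-146, and the groups overlapped.

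**Figure D2:**
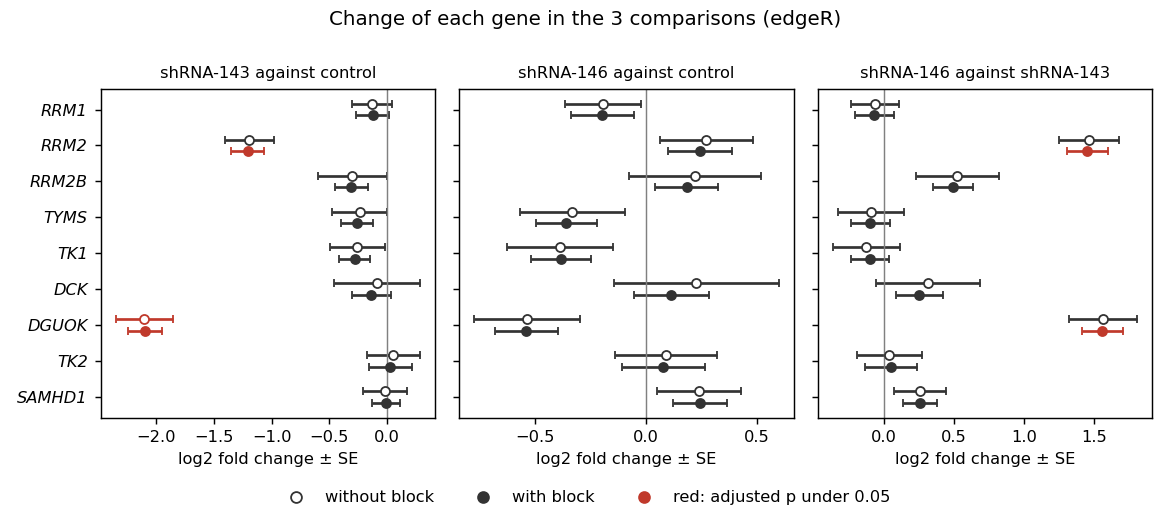
Log2 fold change of each dNTP gene in the 3 comparisons, with bars of 1 SE, from edgeR without (open) and with (filled) the replicate block; red marks an adjusted p under 0.05 and the scale of the horizontal axis differs between panels. DGUOK (-2.10) passes in both fits with shRNA-143, and RRM2 (-1.21) passes with the block only, as do both genes between the shRNAs (1.56 and 1.45).

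Of the 9 genes, 8 were below 0 with shRNA-143, with a median of -0.26 in the blocked fit against 0.004 over all tested genes. Among them SAMHD1 (-0.01 ± 0.12), RRM1 (-0.13 ± 0.14) and DCK (-0.14 ± 0.17) lay within 1 SE of 0. The share of all tested genes below 0 was not counted. With shRNA-146, 4 of the 9 were below 0 and the median was 0.08 against 0.022 over all tested genes; 0 of 9 passed by edgeR in either fit, where 0.0334% of all tested genes passed without the block and 4.42% with it. At an unadjusted p under 0.05, DGUOK was the only gene of the 9 in the shRNA-146 comparison without the block, against 8.81% of all tested genes, and DGUOK, TK1 and TYMS were with it, against 23.5%, counts of 1 and 3 that lie near the background. DESeq2 with the block passed DGUOK in this comparison (adjusted p = 0.0178), where it passed 10.7% of the genes it tested. In the authors' deposited table for shRNA-143, DGUOK was listed at -2.08 with rank 5 by p among 23828 genes and RRM2 at -1.18 with rank 24. Their DESeq2 adjusted p-values there were 3.65e-11 and 4.01e-05. In that for shRNA-146 DGUOK and RRM2 were listed at -0.53 and 0.28, with adjusted p of 0.765 and 0.930.

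**Figure D3:**
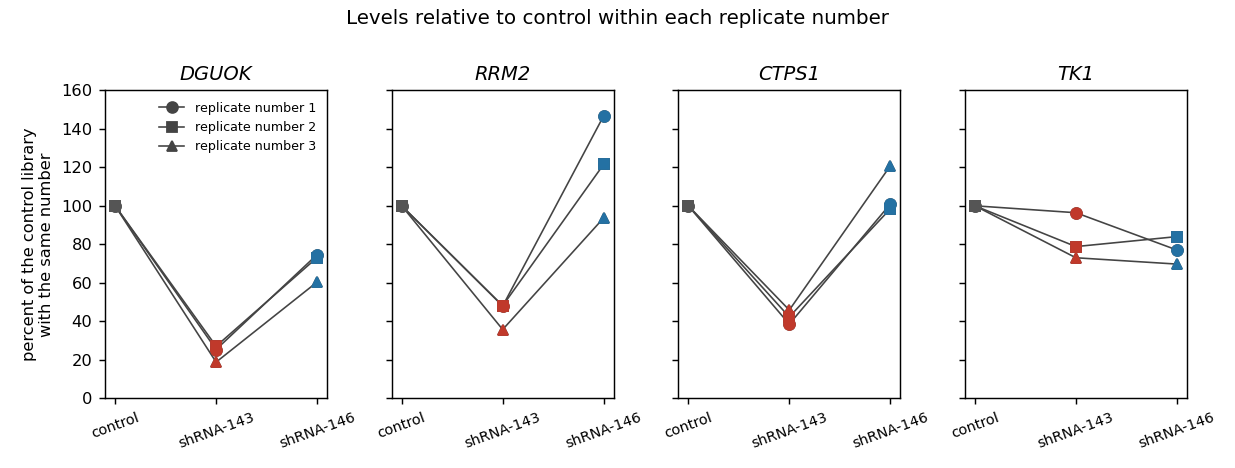
Level of DGUOK, RRM2, CTPS1 and TK1 as a percent of the control library with the same replicate number, on a linear axis from 0; lines join libraries of a number. With shRNA-143, DGUOK lies at 18.7% to 27.0% and RRM2 at 35.7% to 48.1% of control in all 3 numbers, whereas TK1 lies at 73.0% to 96.4%.

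Levels of different genes were compared per kilobase. In control the order was TK1 at 282 ± 43.7 CPM per kilobase (SD, n = 3), TYMS at 50.5 ± 5.50, RRM1 at 41.3 ± 2.41, DCK at 40.3 ± 6.73, DGUOK at 34.9 ± 6.78, RRM2 at 26.5 ± 1.58, SAMHD1 at 16.9 ± 2.75, RRM2B at 4.30 ± 0.853 and TK2 at 0.838 ± 0.0502. The ranges of the neighbours RRM1 and DCK, DCK and DGUOK, and DGUOK and RRM2 overlapped, and those of the other neighbours did not. With shRNA-143 both DGUOK, at 8.13 ± 1.55 CPM per kilobase, and RRM2, at 11.6 ± 1.76, dropped below SAMHD1, at 16.7 ± 2.02, and their own ranges still overlapped. With shRNA-146 RRM2, at 32.0 ± 7.65, stood before DGUOK, at 24.1 ± 4.82, with overlapping ranges, and TK1 first and RRM2B and TK2 last were the same in all 3 groups.

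**Figure D4:**
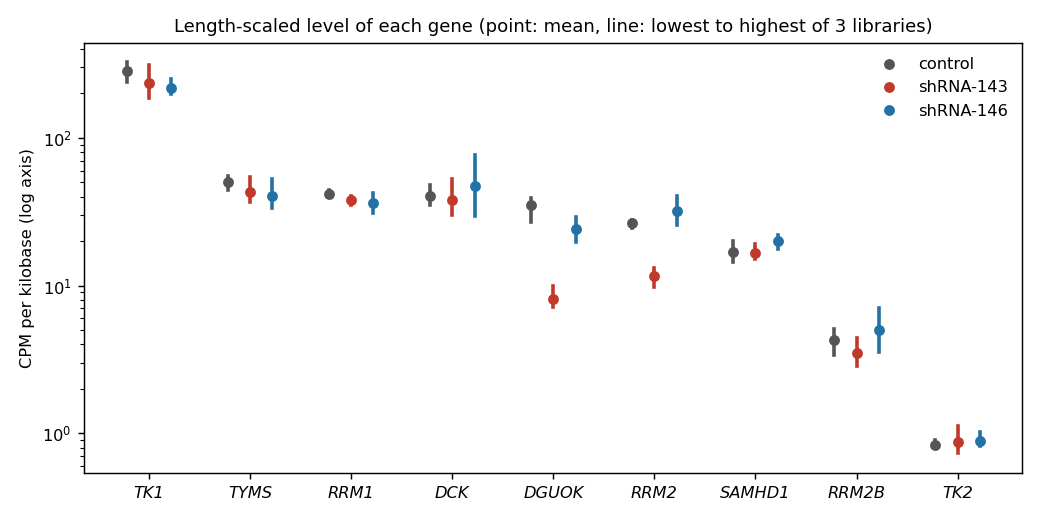
Mean level per kilobase of gene length (point) and the lowest to highest of the 3 libraries (line) for each gene and group, on a log axis, with genes in the order of their control means. TK1 is highest and TK2 lowest in all 3 groups, and DGUOK falls from 34.9 to 8.13 CPM per kilobase with shRNA-143.

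The genes whose pattern over the 9 libraries was most like that of DGUOK and of RRM2 were listed by Pearson correlation of log2 CPM, as a description only, since the points share groups and replicate numbers. For DGUOK these were TTTY15 (r = 0.990), SHISA5 (0.974), WDR5 (0.968), TPD52L2 (0.962) and ARHGEF39 (0.961). For RRM2 they included KPNA2 (r = 0.996), ME2 (0.983), ETFRF1 (0.983) and USP12 (0.974). KPNA2, a nuclear import receptor, had means of 501 (control), 223 (shRNA-143) and 563 (shRNA-146) CPM, against 141, 61.7 and 170 for RRM2.

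The pathways around the 9 genes were read from 8 lists, all of whose genes were tested. Without the block 0 of their 94 genes passed by edgeR in any comparison, with 6 at an unadjusted p under 0.05 for shRNA-143 and 12 for shRNA-146, where 6.80% and 8.81% of all tested genes had one, and DESeq2 passed 1, CTPS1. With the block the shares of all tested genes at an unadjusted p under 0.05 were 20.7% and 23.5%, against which the unadjusted counts of the lists below are to be read. The shares that passed by edgeR adjusted p with the block were 3.17% for shRNA-143 and 4.42% for shRNA-146. The passing genes of the lists are to be read against these. With the block CTPS1, which makes CTP from UTP, was the gene of these lists that fell most with shRNA-143. CTPS1 stood at 270, 321 and 255 CPM in control, 104, 135 and 117 with shRNA-143 and 273, 316 and 309 with shRNA-146. The shRNA-143 libraries were again the 3 lowest, and shRNA-146 and control overlapped: the change was -1.25 ± 0.12 with shRNA-143 (edgeR with the block, adjusted p = 0.00134; without it -1.25 ± 0.18, adjusted p = 0.0622), and the difference of shRNA-146 from shRNA-143 was 1.34 ± 0.12 (adjusted p = 0.000736). The order of the groups in CTPS1 was that of RRM2.

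Among the 5 genes of de novo pyrimidine synthesis, CTPS1 passed with shRNA-143 and UMPS, which completes UMP, fell with shRNA-146 (-0.73 ± 0.13, edgeR with the block, adjusted p = 0.0156), with list medians of -0.17 and -0.21. Of the 12 genes of de novo purine synthesis, 1 passed, ATIC, which catalyses the last steps to IMP, with shRNA-143 (-0.59 ± 0.14, adjusted p = 0.0484), and the medians were -0.21 with shRNA-143 and -0.10 with shRNA-146. Among the 16 genes of nucleoside salvage and breakdown, only the cytosolic nucleotidase NT5C2, known for resistance to thiopurines in lymphoid leukaemia, passed, and it rose with both shRNAs. NT5C2 stood at 35.8, 37.9 and 23.6 CPM in control, 58.5, 48.3 and 37.9 with shRNA-143 and 60.7, 52.0 and 42.0 with shRNA-146, a gain of 0.58 ± 0.14 (adjusted p = 0.0449) and 0.68 ± 0.14 (adjusted p = 0.0234) on the log2 scale.

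The 16 genes that convert dNTPs into one another and clean the pool had the lowest medians of the 8 lists, -0.32 with each shRNA, with 14 of 16 below 0 in both comparisons, against all-gene medians of 0.004 and 0.022. With shRNA-143 0 of the 16 passed with the block, with 7 at an unadjusted p under 0.05. With shRNA-146 DUT, the dUTPase that keeps uracil out of DNA, fell by 0.69 ± 0.14 (edgeR with the block, adjusted p = 0.0290), ITPA, which removes inosine triphosphates, by 0.87 ± 0.18 (adjusted p = 0.0265) and the mitochondrial adenylate kinase AK4 by 0.80 ± 0.18 (adjusted p = 0.0364). CMPK2, a mitochondrial nucleotide kinase, rose by 0.72 ± 0.14 (adjusted p = 0.0238). DUT stood at 515, 334 and 462 CPM in control and at 301, 264 and 239 with shRNA-146, with shRNA-143 at 418, 264 and 313.

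By edgeR with the block no gene passed among the 8 of thymidylate and one-carbon supply, with medians of -0.22 with shRNA-143 and -0.19 with shRNA-146 and 1 and 3 genes at an unadjusted p under 0.05. Nor did any pass among the 10 of nucleoside and nucleotide transport, with medians of -0.09 and -0.01 and 1 and 3 such genes. Of the 11 genes that maintain mitochondrial DNA, the process that DGUOK and TK2 supply, the single-strand binding protein SSBP1 fell with shRNA-146 (-0.56 ± 0.13, edgeR with the block, adjusted p = 0.0409) and none passed with shRNA-143, where the median was -0.04 and 1 gene had an unadjusted p under 0.05. Of the 16 S phase genes, read because RRM2, TYMS and TK1 are themselves induced in S phase, cyclin E2 (CCNE2) rose with shRNA-146 (0.82 ± 0.19, adjusted p = 0.0368) and none passed with shRNA-143, where 4 had an unadjusted p under 0.05. The S phase medians were -0.11 with shRNA-143 and -0.14 with shRNA-146. Single genes of this list ran from -0.52 to 0.59 with shRNA-143 and from -0.45 to 0.82 with shRNA-146. Any part of S phase in the changes of RRM2, TYMS and TK1 was not tested.

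**Figure D5:**
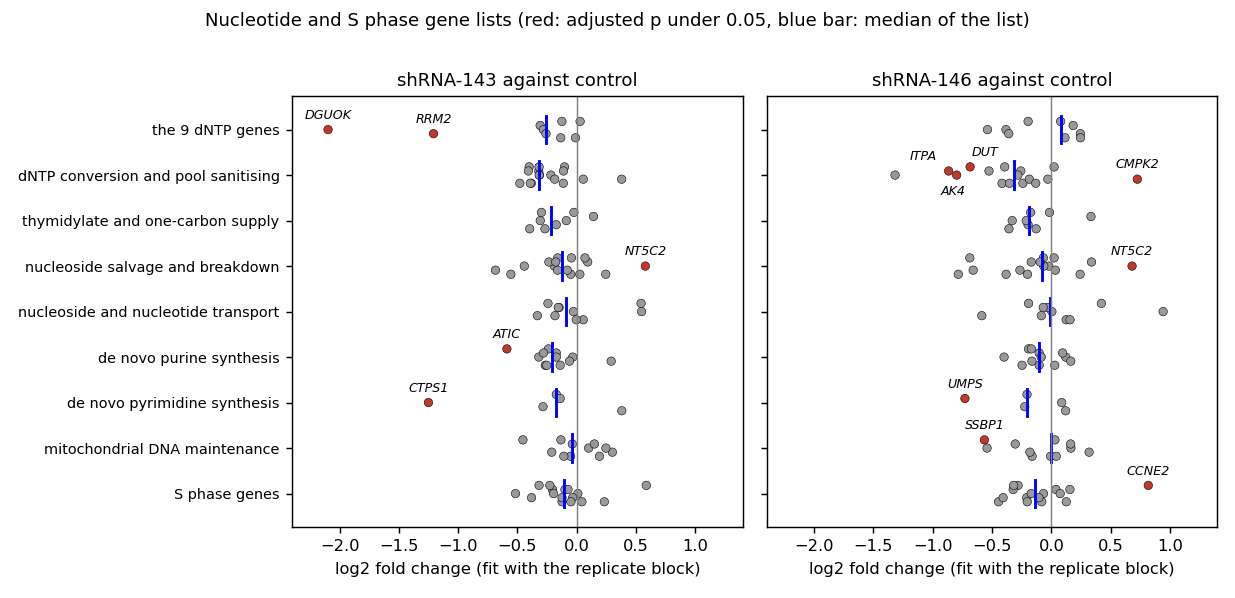
Log2 fold change with the replicate block for the 9 dNTP genes and the genes of 8 surrounding lists, with shRNA-143 (left) and shRNA-146 (right) against control; each point is a gene, red marks an adjusted p under 0.05 and the blue bar is the median of the list. DGUOK, CTPS1 and RRM2 lie farthest to the left with shRNA-143, and the conversion list has a median of -0.32 in both panels.

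The libraries numbered 1 were high for most of these genes. In all 3 groups the library numbered 1 was above both others for 6 of the 9 genes, RRM2, RRM2B, TYMS, TK1, DCK and DGUOK, against 25.9% of all tested genes. For RRM1, TK2 and SAMHD1 the order differed between groups, and NFATC2 was lowest in the library numbered 1 in each. What the numbers share is not given in the labels, and its part in these levels was not tested; within each number, the falls of DGUOK and RRM2 with shRNA-143 were present.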

How the data were processed

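THP-1 libraries were grouped by the shRNA in the labels, 3 per group. The authors deposited raw counts per gene, and comparison tables with normalized signal (counts divided by a size factor), FPKM values, log2 fold changes, p-values and gene lengths, per the file headers; hg38, fastp, featureCounts, STAR 2.5 and DESeq2 are named in the submitters' processing notes. Whether counting used strand is not stated, so counts of overlapping genes are uncertain.

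Counts were tested with edgeR 4.0.16 (R 4.3.3, limma 3.58.1): filterByExpr, TMM scaling, robust quasi-likelihood fit on all 9 libraries with 6 residual degrees of freedom, Benjamini-Hochberg adjustment over 14975 genes and a threshold of 0.05. SE is the fold change divided by the root of its F statistic. The replicate block (4 residual degrees of freedom) rests on the data, because the titles give a number and no more: all same-numbered pairs had deviations correlated at 0.252 to 0.758, different-numbered ones at -0.678 to 0.535, and numbers 2 and 3 are not clearly apart. The negative values follow in part from centring on group means. DESeq2 1.42.0, other scalings, no filter, the 6 libraries compared, left-out libraries and the libraries numbered 2 and 3 were alternatives. The FPKM and signal columns entered no test.

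The 9 genes and the lists were chosen with earlier results of these data known. Named genes were the 9, their overlapping, copied and neighbouring genes, the 5 genes most alike in log2 CPM (prior count 2), up to 4 passing genes a list, and NFATC2. A gene that this rule names is not reported here. Sequences are from RefSeq: all 8 genes looked up matched.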

Additional observations from a re-analysis of the deposited data

Results flagged for a closer look

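The difference between the shRNAs was itself tested, in edgeR with the replicate block, although both shRNAs are directed at NFATC2. Of the 9 genes and the 94 list genes, 3 passed, where 1.20% of all tested genes did. DGUOK was higher with shRNA-146 than with shRNA-143 by 1.56 on the log2 scale, RRM2 by 1.45 and CTPS1 by 1.34, DGUOK and RRM2 in 3 of 3 replicate numbers. The libraries did not overlap for all 3 genes, as was so for 8.17% of all tested genes. Without the block these differences had adjusted p-values of 0.0948, 0.0826 and 0.0608.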

How the results depend on the processing

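With the replicate block, DGUOK and RRM2 passed for shRNA-143 against control and for shRNA-146 against shRNA-143 in all 9 fits that leave out a library, a count of 2 each time; for shRNA-146 against control it was 0 to 2, the 2 being DGUOK and TYMS without shRNA-146 replicate 1. Without the block, leaving out a library gave 0 to 2 genes for shRNA-143 (2 without shRNA-146 replicate 1) and 0 to 0 in the other comparisons. For shRNA-143 the count moved from 1 to 2 with the replicate block, library size scaling, both together, DESeq2 with and without the block, and the libraries numbered 2 and 3 with and without the block, and to 0 with only the 6 libraries compared. For shRNA-146 against control it moved from 0 to 1 with DESeq2 and the block and to 2 with the libraries numbered 2 and 3 and the block. For shRNA-146 against shRNA-143 it moved from 0 to 2 under all of these but the 6 libraries compared, and without the filter. DESeq2 with the block and the libraries numbered 2 and 3 were chosen after seeing the data.

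Calls in the lists, summed over both control comparisons, were 0 by edgeR on all 9 libraries without the block. In the order replicate block, block with library size scaling, DESeq2 with the block, and libraries numbered 2 and 3 without and with the block, they were 4, 2, 5, 4 and 8 for dNTP conversion, 0, 1, 0, 0 and 1 for thymidylate, 2, 2, 5, 0 and 4 for salvage, 0, 0, 1, 0 and 1 for transport, 1, 0, 1, 1 and 2 for purine, 2, 2, 2, 2 and 2 for pyrimidine, 1, 1, 2, 2 and 3 for mitochondrial DNA and 1, 1, 2, 2 and 4 for S phase. The shares of all tested genes that passed, for shRNA-143 and shRNA-146, also differed between these fits. They were 3.17% and 4.42% with the block and 7.70% and 10.7% with DESeq2 and the block. On the libraries numbered 2 and 3 they were 3.89% and 6.28% without the block and 10.4% and 13.9% with it. With the block and library size scaling, 267 genes rose and 147 fell with shRNA-143, and 679 and 156 with shRNA-146, of 14975. DESeq2 without the block gave 1 for pyrimidine, and leaving out a library there gave 0 to 1 (CTPS1 without shRNA-146 replicate 1).

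Of 756 gene values under alternatives, 44 changed sign, none of them of DGUOK or RRM2; the cause was not tested. SAMHD1 with shRNA-143 was 0.080 and 0.082 with library size scaling, without and with the block, 0.0046 with DESeq2 and the block, and 0.033 and 0.046 on the libraries numbered 2 and 3 without and with the block. On those libraries, in the same order, TK2 was -0.19 and -0.19 with shRNA-143 and -0.040 and -0.039 with shRNA-146, DCK -0.16 and -0.16 with shRNA-146, and TK1 0.0064 and 0.0099 for shRNA-146 against shRNA-143. Leaving out a library gave, with shRNA-143, DCK -0.40 to 0.057, TK2 -0.17 to 0.17 and SAMHD1 -0.12 to 0.11; with shRNA-146, RRM2B -0.10 to 0.42, DCK -0.31 to 0.48 and TK2 -0.091 to 0.19; and between the shRNAs, RRM1 -0.24 to 0.036, TYMS -0.33 to 0.11, TK1 -0.27 to 0.13, DCK -0.22 to 0.63 and TK2 -0.075 to 0.26. With 3 libraries a group, TK2, at 214 to 313 counts, is the gene whose depth limits it most.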
